A study of Ovis aries with 14 samples.

Results

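In the lamb lung count table, 44 of 27054 genes had their lowest levels in the youngest fetal lungs, stood higher in older fetal lungs, and in each of the supported and term groups had at least 1 library no higher than the highest older fetal library. Levels are CPM, the count of a gene divided by the total of its library and given per 1000000 counts. The 44 genes were chosen by their measured levels in all 14 libraries: a mean of 2 to under 1000 CPM over the 14 libraries, all 3 fetal start libraries below all 11 other libraries, a fetal end mean at least 1.3 times the fetal start mean, and, in each of the other groups, at least 1 library at or below the highest fetal end library. The contrasts with fetal start and with fetal end therefore chose the genes, and their values are given as a description. Differences between both kinds of support, and between support and term, were not conditions of the choice and were tested gene by gene. The choice did bound the IMV, NRS and term levels, from below by fetal start and partly from above by fetal end, and so limits how far these groups can differ. Counts of the 44 genes in these comparisons are therefore a description, and nothing is read from their distance to the share over all genes.

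RNA came from the right lower lobe of lamb lungs (Ovis aries), 1 library per animal. Both supported groups were preterm lambs that were helped to breathe for 3 days. The IMV group (n = 3, labelled gd134, the gestational age) had invasive mechanical ventilation through a tube, and the NRS group (n = 3, labelled gd134) had noninvasive respiratory support with a mask. Untreated lungs came from a term group (n = 2, labelled gd150), a fetal end group (n = 3, labelled gd134, gd135 and gd136) and a fetal start group (n = 3, labelled gd127, gd128 and gd131). The labels do not say whether the term lambs had been born. Animal identifiers end in 17 or 18 for IMV and fetal start, in 18 for NRS and term, and in 19 for fetal end, so that suffix and group cannot be told apart at fetal end. The fetal end libraries labelled gd135 and gd134 carry each other's day in their animal identifiers, so the order of these animals by age is uncertain. Library totals ran from 23267448 to 31586235 counts.

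Late gestation is the time when the lung prepares for air. Air spaces widen and their walls thin, type 2 epithelial cells make and store surfactant, which lowers surface tension, and the epithelium turns from secreting lung liquid to absorbing it. Glucocorticoids are known to drive much of this maturation, and a lamb born before it needs help with breathing. The table lists Ensembl identifiers without gene names, and 0 of them could be matched to a symbol in the reference table, so the roles of the 44 genes, their cell types and the tissue's own markers are not reported here. In whole tissue, fewer cells of a type and less RNA per cell cannot be told apart.

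Of the 13364 genes with a mean of 2 to under 1000 CPM, 156 (1.17%) had all 3 fetal start libraries below all others, and 158 had them above all others. A fetal end mean of at least 1.3 times the fetal start mean left 101 of the 156. The upper limit at fetal end then removed 57 genes and left the 44 described here. The number and the genes depend on single libraries. Without term replicate 2 there were 37 genes and without term replicate 3 there were 39, and each time 12 of the 44 were lost. Of the fetal libraries, leaving out fetal end replicate 1 lost 13 of the 44, and the number was 234 without fetal start replicate 3, 117 without fetal start replicate 1, 66 without fetal start replicate 2 and 81 without fetal end replicate 3. In the removed 57 genes the median ratio to the fetal end mean was 1.41 after IMV, 1.58 after NRS and 1.84 at term, which is what the limit selects. In the 44 genes these medians were 1.00, 1.04 and 1.04, and over all 13364 genes they were 0.992, 1.01 and 0.997.

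The 44 genes were mostly of low to middle abundance. The median of their mean levels was 9.28 CPM, with a range of 2.09 to 509 CPM. 24 genes lay under 10 CPM, 14 between 10 and 100 CPM and 6 above 100 CPM. Together they took 0.196% to 0.219% of all counts after IMV, 0.209% to 0.215% after NRS, 0.218% to 0.246% at term, 0.210% to 0.230% at fetal end and 0.131% to 0.139% at fetal start. The 2 most abundant genes held 46.7% of the 44 genes' counts. The lowest count of any of the 44 genes in any library was 8, and in 9 genes the lowest library count was under 30. The relative counting error is larger at such low counts, and its part in the spread was not tested.

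**Figure D1:**
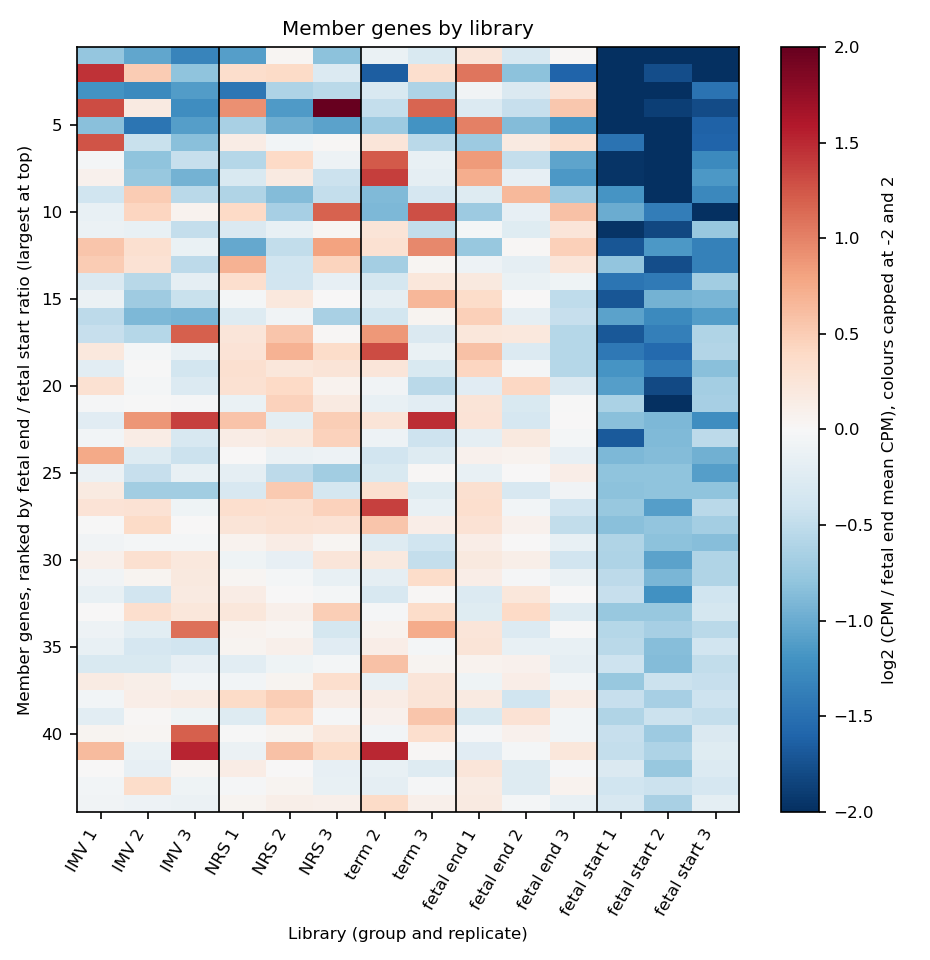
Each row is 1 of the 44 genes, ranked by its ratio of fetal end to fetal start, and each column is 1 library. Colour shows log2 of CPM over the gene's fetal end mean, with the colours capped. The fetal start columns are blue throughout, as the choice of genes requires. Red cells mark genes above their fetal end mean in a library, in the supported and term groups and also at fetal end.

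The fetal end mean was 1.3 to 9.32 times the fetal start mean, with a median ratio of 1.95. The ratio reached 2 in 21 genes and 3 in 8, and it stayed under 1.5 in 10. The last 3 genes inside the threshold of 1.3 had ratios of 1.34, 1.31 and 1.3. The first 3 outside it, among 14 genes that met every other condition, had 1.28, 1.26 and 1.25. The separation of fetal start from the rest was narrow in most genes. The lowest of the 11 other libraries was a median of 1.1 times the highest fetal start library, under 1.1 times in 23 genes, and at least 1.5 times in 2 genes.

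ENSOARG00000006431 had the largest ratio. Its levels were 2.46, 2.06 and 1.69 CPM after IMV, 1.97, 4.34 and 2.39 CPM after NRS, 3.84 and 3.4 CPM at term, 5, 3.39 and 4.27 CPM at fetal end, and 0.325, 0.355 and 0.677 CPM at fetal start. Every other library lay well above the fetal start libraries, the lowest of them at 2.49 times the highest fetal start value. The 3 fetal start libraries together held 37 counts of this gene.

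ENSOARG00000010094 had the next largest ratio, and a much wider spread. It had 11.2, 5.86 and 2.37 CPM after IMV, 5.27, 5.42 and 3.43 CPM after NRS, 1.32 and 5.22 CPM at term, 8.70, 2.35 and 1.37 CPM at fetal end, and 0.940, 1.21 and 0.602 CPM at fetal start. Replicate 1 lifts the fetal end mean, and fetal end replicate 3 and term replicate 2 lie just above the highest fetal start library.

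ENSOARG00000014849 was the most abundant of the 44 genes. It had 589, 570 and 507 CPM after IMV, 505, 545 and 661 CPM after NRS, 476 and 623 CPM at term, 495, 574 and 508 CPM at fetal end, and 310, 389 and 381 CPM at fetal start. The ratio of 1.46 between fetal end and fetal start is small, and the groups other than fetal start overlap one another.

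In the fit over all genes, ENSOARG00000006431 was the 1 gene called between fetal end and fetal start (quasi-likelihood test of edgeR, adjusted p under 0.05 by Benjamini-Hochberg, 0.00586% of 17069 genes tested). Its log2 fold change was 3.19 with an SE of 0.39 (edgeR, adjusted p = 0.0422, higher in 3 of 3 fetal end libraries). Its edgeR adjusted p was above the threshold without any 1 of the fetal end libraries, without fetal start replicate 1 or 2, with the replicate number as a block (edgeR adjusted p = 0.304) and with only these groups in the fit, and it ranged from 0.0303 to 0.444 over the edgeR alternatives. DESeq2 called 14 of the 44 genes higher at fetal end, where it called 0.504% of 16665 genes higher. Because this contrast chose the genes, nothing is read from these shares.

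**Figure D2:**
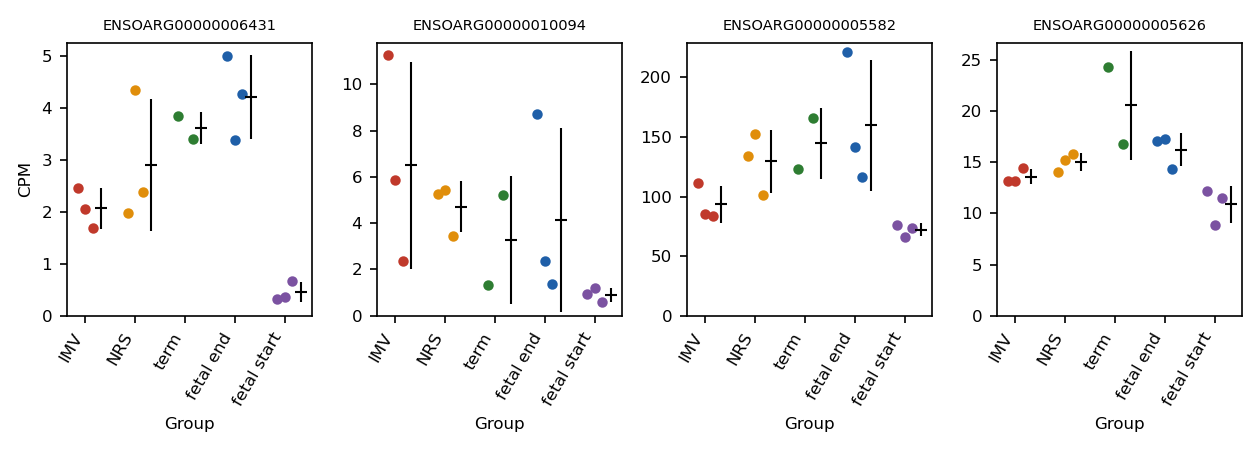
CPM of 4 of the 44 genes in each library (points) by group, with the group mean and SD (n = 3, term n = 2) to the right of the points. ENSOARG00000006431 is clear of fetal start in every other group, ENSOARG00000010094 varies widely within IMV, term and fetal end, the IMV libraries of ENSOARG00000005582 lie below its fetal end libraries, and ENSOARG00000005626 is highest in term replicate 2.

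The fetal libraries can also be read by age. The median level of the 44 genes relative to their fetal end mean was 0.560 at gd127, 0.470 at gd128 and 0.620 at gd131, and 0.969, 1.12 and 0.948 at gd134, gd135 and gd136. Within fetal start, the oldest library (gd131, replicate 3) was the highest of the 3 in 27 of 44 genes (61.4%), where it was the highest in 39.1% of the 13364 genes of the same abundance. The gd128 library was the lowest in 26 genes (59.1%, against 39.4%). Within fetal end, the library labelled gd135 (replicate 1) was the highest in 26 genes (59.1%, against 28.9%), and the oldest, gd136, was the lowest in 21 (47.7%, against 45.9%). By the days in the animal identifiers, which exchange the gd134 and gd135 libraries, the fetal end medians were 1.12, 0.969 and 0.948 and fell from one day to the next, whereas by the labels they had no such order. No relation to the day is therefore read within a group, and each day is 1 animal. The rule used these fetal values, and the highest fetal end library sets its upper limit. These ranks are thus a description, and nothing is read from their distance to the shares over all genes.

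**Figure D3:**
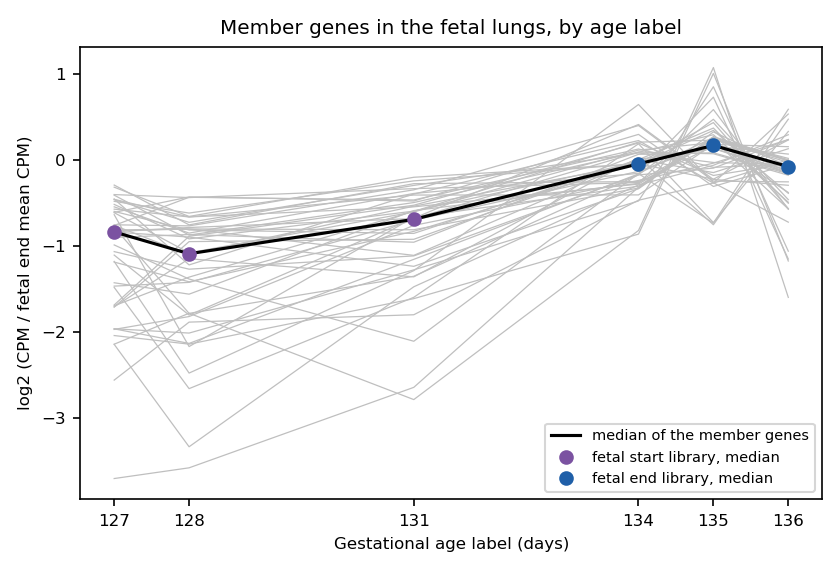
Log2 of CPM over the fetal end mean for the 44 genes (grey lines) in the 6 fetal lungs, placed by the age label in days; lines join different animals. The median (black) lies between -1.09 and -0.69 in the fetal start libraries and between -0.08 and 0.17 in the fetal end libraries.

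The median ratios of supported and term lungs to fetal end were close to 1, as the upper limit favours, but single genes departed from it. Ratios to the fetal end mean ran from 0.437 to 1.78 after IMV, from 0.540 to 2.16 after NRS and from 0.520 to 1.98 at term. The IMV mean lay within the range of the fetal end libraries in 29 genes, above it in 7 and below it in 8. The NRS mean lay within it in 32 genes, above it in 9 and below it in 3. The term mean lay within it in 24, above it in 15 and below it in 5. The highest group mean was that of term in 18 genes, NRS in 11, fetal end in 9 and IMV in 6. The IMV mean was over 1.5 times the fetal end mean in 3 genes, the NRS mean in 1 and the term mean in 7. In the other direction, the fetal end mean was over 1.5 times the IMV mean in 4 genes, the NRS mean in 3 and the term mean in 1. The term mean rests on 2 libraries, which differed 2-fold or more in 10 of the 44 genes. The rule keeps at least 1 of them at or below the highest fetal end library. The counts in this paragraph have no share over all genes beside them, and nothing is read from them. Relative to fetal start, the median ratios were 1.92 after IMV, 2.05 after NRS and 1.96 at term.

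**Figure D4:**
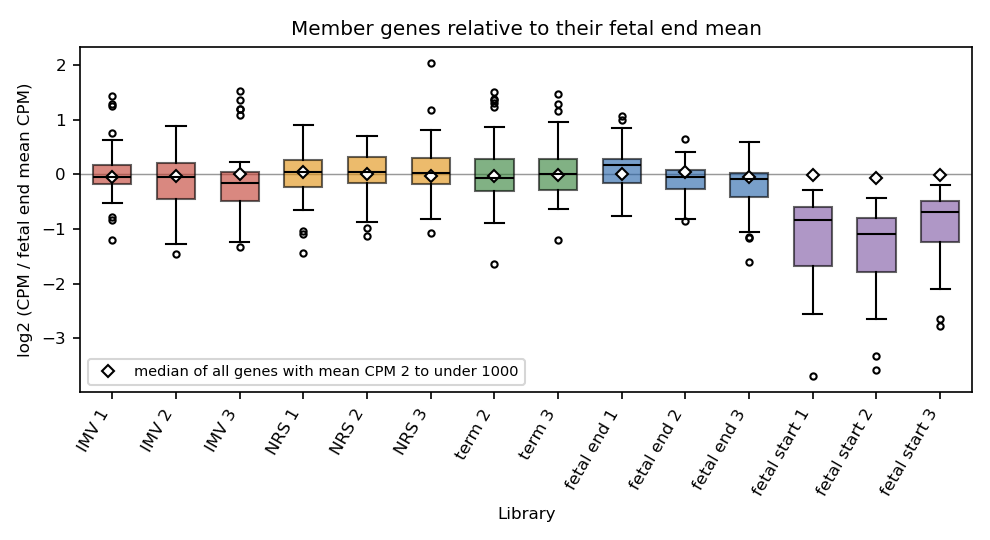
Log2 of CPM over the fetal end mean for the 44 genes in each library; boxes show the quartiles and median, whiskers reach 1.5 times the box, and circles are genes beyond them. Diamonds give the median of all 13364 genes with a mean of 2 to under 1000 CPM. Medians of the 44 genes run from -0.15 (IMV replicate 3) to 0.17 (fetal end replicate 1) outside fetal start, and from -1.09 to -0.69 in fetal start.

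Wide differences between animals of a group were more frequent among the 44 genes than among the 13364 genes of 2 to under 1000 CPM. This held after IMV, at term, at fetal end and at fetal start, with a similar share after NRS, and was not tested. Within that range, the 13364 genes were not matched to the 44 in abundance. The highest and lowest libraries differed 2-fold or more in 12 of the 44 genes after IMV (27.3%, against 8.16% of the 13364 genes), in 5 after NRS (11.4%, against 9.44%), in 10 at term (22.7%, against 5.81%), in 10 at fetal end (22.7%, against 9.81%) and in 11 at fetal start (25%, against 12.8%). The rule bears on these shares in every group, so they are a description. In each supported or term group, at least 1 library must lie at or below the highest fetal end library, and all must lie above fetal start. What these conditions do to the spread was not tested. At fetal end the highest library sets the upper limit, and at fetal start all libraries must lie below the others. Among the 12 genes after IMV, 7 had a mean under 10 CPM, beside 24 of all 44 genes.

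High values within IMV, term and fetal end came from different animals in different genes. IMV replicate 1 stood at least 2-fold above both other IMV libraries in 3 genes, and IMV replicate 3 in 3 others. Term replicate 2 was at least 2-fold above term replicate 3 in 6 genes, and the reverse held in 4. Fetal end replicate 1 was at least 1.5 times both other fetal end libraries in 6 genes, replicate 2 in 3 and replicate 3 in 2. After removal of the group means, log2 levels of the 44 genes were weakly related to one another across the 14 libraries: the median Pearson correlation over 946 pairs was 0.09, with quartiles of -0.19 and 0.35, beside a median of 0.02 with quartiles of -0.25 and 0.29 over all pairs of the 13364 genes. These pairs share the same libraries and are not independent.

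IMV against NRS asks whether the kind of support mattered for these genes. No difference passed: edgeR called 0 of the 44 genes and 0% of the 17069 genes tested. At an unadjusted p under 0.05 it counted 0 of the 44, beside 10.9% of all genes, and DESeq2 called 0 of the 44, beside 0.754% of 15790 genes. Log2 fold changes of the 44 genes ran from -0.65 to 0.62 with a median of -0.10, beside 0.004 over all genes tested. They were negative in 28 of the 44, beside 49.3% of all genes tested. The median was -0.161 without IMV replicate 1 and -0.0517 without NRS replicate 2. Standard errors ran from 0.12 to 0.74. All IMV libraries lay below all NRS libraries in 6 of the 44 genes (13.6%), beside 14.9% of genes of the same abundance range. They lay above all NRS libraries in 0 of the 44, where 6.95% of genes of that range did. Of the IMV animals 1 shares the identifier suffix of the NRS animals. With the suffix as a covariate, split into 17 against all others, edgeR also called 0 of the 44. A missed threshold does not show that both kinds of support gave the same levels.

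The genes nearest to a difference were small shifts or single libraries. ENSOARG00000005582 had 111, 85.7 and 83.8 CPM after IMV and 134.2, 153 and 101 CPM after NRS, an edgeR log2 fold change of -0.42 with an SE of 0.22 (adjusted p = 0.518, 2 of 3 IMV libraries below all NRS libraries). It stood at 124 and 166 CPM at term, 222, 142 and 116 CPM at fetal end, and 76.5, 66.4 and 73.9 CPM at fetal start. The groups IMV and NRS overlap in this gene, and the IMV libraries are all below the fetal end libraries.

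ENSOARG00000003099 had 7.11, 8.14 and 6.35 CPM after IMV and 10.3, 9.67 and 9.84 CPM after NRS, an edgeR log2 fold change of -0.42 with an SE of 0.24 (adjusted p = 0.545). IMV and NRS do not overlap in this gene. Term libraries had 9.75 and 6.66 CPM, and the fetal end libraries, at 11.1, 8.01 and 5.56 CPM, span the values of both supported groups. At fetal start it had 3.62, 3.09 and 4.63 CPM.

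ENSOARG00000000530 had the positive fold change with the smallest p, 0.49 with an SE of 0.26 (edgeR, adjusted p = 0.518). It had 13.4, 13.3 and 29.5 CPM after IMV and 12.8, 13.4 and 14.9 CPM after NRS. IMV replicate 3 alone is high, the other IMV libraries lie within the NRS range, and without replicate 3 the log2 fold change was 0.014. The gene had 12.4 and 16.3 CPM at term, 12.6, 13.6 and 12.4 CPM at fetal end, and 9.36, 7.80 and 10.5 CPM at fetal start.

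ENSOARG00000002223, the gene with the second highest mean, had 488, 384 and 473 CPM after IMV and 465, 367 and 325 CPM after NRS, an edgeR log2 fold change of 0.27 with an SE of 0.15 (adjusted p = 0.540). The groups overlap, and the log2 fold change was 0.41 without NRS replicate 1 and 0.18 without NRS replicate 3. It had 427 and 536 CPM at term, 476, 528 and 577 CPM at fetal end, and 300, 302 and 245 CPM at fetal start.

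**Figure D5:**
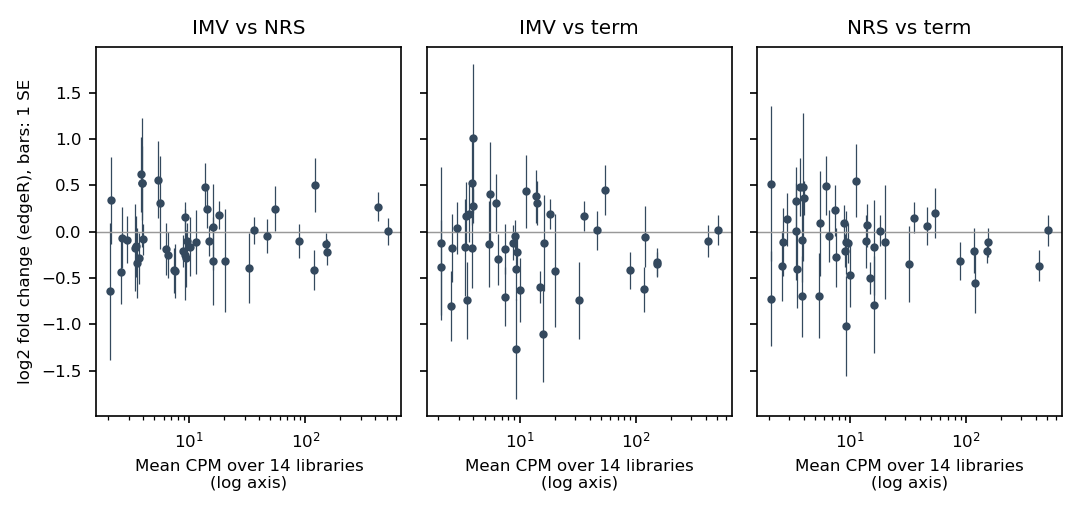
Log2 fold change of the 44 genes with 1 SE (edgeR, all 14 libraries in 1 fit) against their mean CPM (log axis), for IMV against NRS, IMV against term and NRS against term. None of these fold changes passed an adjusted p of 0.05. The widest bar in each comparison is that of the gene with the lowest mean, 2.09 CPM. Wide bars also occur at higher abundance, as in a gene at 20.2 CPM (SE of 0.55 for IMV against NRS).

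IMV against term and NRS against term ask whether supported preterm lungs differed from term lungs, which were also older. Both comparisons use the same 2 term libraries. After IMV, edgeR called 0 of the 44 genes and 0% of 17069. At an unadjusted p under 0.05 it counted 5 of the 44 (11.4%), all lower after IMV, beside 17.9% of all genes in either direction. DESeq2 called 1 of the 44, lower after IMV, where it called 2.9% of 16228 genes lower. Log2 fold changes ran from -1.27 to 1.01 with a median of -0.13, beside -0.003 over all genes, and 3 reached 1 in size. The median was 0.0035 without term replicate 3 and -0.0512 without IMV replicate 2. All IMV libraries lay below both term libraries in 7 genes (15.9%), where 20.3% of genes of the same abundance range did. They lay above both in 2 (4.55%), where 17.7% did.

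After NRS, edgeR again called 0 of the 44 genes and 0% of 17069 against term. At an unadjusted p under 0.05 it counted 1 of the 44, beside 10.4% of all genes, and DESeq2 called 0 of the 44, beside 0.69% of 16665 genes. Log2 fold changes ran from -1.02 to 0.55 with a median of -0.11, beside -0.005 over all genes. With only term replicate 3 kept, the median was -0.0187, and with only term replicate 2 kept it was -0.0153. All NRS libraries lay below both term libraries in 1 gene (2.27%), where 12.1% of genes of the same abundance range did. They lay above both in 5 (11.4%), where 16.7% did.

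ENSOARG00000005626 had the smallest p against term after both kinds of support. It had 13.1, 13.1 and 14.4 CPM after IMV and 14, 15.3 and 15.8 CPM after NRS, against 24.3 and 16.8 CPM at term. The supported libraries are all below both term libraries, and term replicate 2 stands apart from term replicate 3. The log2 fold change against term was -0.60 after IMV with an SE of 0.17 (edgeR, adjusted p = 0.115) and -0.50 after NRS with an SE of 0.17 (edgeR, adjusted p = 0.411). DESeq2 called the difference after IMV (DESeq2 adjusted p = 0.0263), and the edgeR adjusted p ranged from 0.112 to 0.531 over its alternatives. Without term replicate 2 the edgeR log2 fold change was -0.29 after IMV and -0.19 after NRS, and without term replicate 3 it was -0.85 after IMV and -0.75 after NRS. The gene had 17.1, 17.3 and 14.3 CPM at fetal end and 12.2, 8.87 and 11.5 CPM at fetal start.

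ENSOARG00000013173 had 147, 145 and 143 CPM after IMV, against 202 and 167 CPM at term, an edgeR log2 fold change of -0.35 with an SE of 0.13 (adjusted p = 0.198). These groups do not overlap, and the IMV libraries are close together. The size rests in part on term replicate 2, without which the log2 fold change was -0.19. It had 160, 169 and 165 CPM after NRS, 175, 150 and 140 CPM at fetal end, and 124, 98.3 and 134.7 CPM at fetal start. ENSOARG00000002223, with the values above, had, after NRS against term, an edgeR log2 fold change of -0.37 with an SE of 0.17 (adjusted p = 0.484), with 2 of 3 NRS libraries below both term libraries. Without term replicate 3 it was -0.21.

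ENSOARG00000018050 was among the genes with the smallest p for a higher level in supported lungs. It had 4.28, 4.37 and 4.38 CPM after IMV and 4.70, 4.99 and 4.59 CPM after NRS, against 3.77 and 3.4 CPM at term. All 6 supported libraries are above both term libraries. The log2 fold change against term was 0.28 after IMV with an SE of 0.18 (edgeR, adjusted p = 0.457) and 0.36 after NRS with an SE of 0.19 (edgeR, adjusted p = 0.521). The gene had 4.92, 4.51 and 4.03 CPM at fetal end and 2.96, 2.55 and 2.48 CPM at fetal start.

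ENSOARG00000000237 had 104, 51.6 and 45.8 CPM after IMV, against 47.5 and 51.6 CPM at term, an edgeR log2 fold change of 0.45 with an SE of 0.27 (adjusted p = 0.406). IMV replicate 1 alone sets this value, and without it the log2 fold change was -0.04. The gene had 62.2, 56.9 and 57.3 CPM after NRS, 65.4, 64.6 and 55.3 CPM at fetal end, and 33.1, 33.9 and 31.9 CPM at fetal start. ENSOARG00000004469 had 8.58, 9.07 and 7.25 CPM after NRS, against 6.59 and 4.77 CPM at term, an edgeR log2 fold change of 0.50 with an SE of 0.32 (adjusted p = 0.606). Its NRS libraries are all above term. Each term library moves this value: it was 0.76 when replicate 2 of term was left out and 0.27 when replicate 3 was. It had 8.57, 6.74 and 5.70 CPM after IMV, 5.91, 9.20 and 5.64 CPM at fetal end, and 3.22, 1.99 and 4.33 CPM at fetal start.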

How the data were processed

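Total RNA libraries were made with a stranded kit, per the labels' protocols. The authors deposited a single table, which holds raw counts for each Ensembl gene, checked to be whole numbers in all 14 columns. Per the submitters' processing notes, which give no roles, the build was Oar_v3.1 and the tools included STAR 2.7.0f, featureCounts 1.6.3 of Subread, cutadapt 1.16, bcl2fastq and DESeq2 1.22.2. How strand and multi-mapping reads were handled is not given in these sources, so counts of overlapping or near-identical genes are uncertain.

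CPM values use column totals. Fold changes come from edgeR 4.0.16 in R 4.3.3 (TMM scaling, quasi-likelihood F test, filterByExpr at its minimum count of 10, 17069 genes kept, 9985 left out) with all 14 libraries in 1 fit of 5 group means (9 residual degrees of freedom) and Benjamini-Hochberg adjustment over all genes tested. The SE is the size of the log2 fold change over the square root of F. DESeq2 1.42.0 was an alternative. Its shares use genes with an adjusted p. Correlations used log2(CPM + 0.5). The procedure was tested on simulated counts.

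The 44 genes and the gene lists were chosen with earlier results of these data known. The reference table (35057 rows) holds 0 Ensembl identifiers, so the planned symbol lists and markers were not used. Identifiers named are the 2 with the largest fetal end to fetal start ratio, the most abundant, and for each tested comparison the 2 with the smallest p in each direction. Libraries of a group differed by a chi-square of 28.1 to 89.1 per degree of freedom, far above sampling noise, so no library repeated another. P-values set differences between group means against the spread between these animals, which the fit estimates over all groups together.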

Additional observations from a re-analysis of the deposited data

How the results depend on the processing

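The 44 genes depend on the libraries that chose them, the term libraries among them. Leaving out 1 library gave 33 to 234 genes, with 33 without fetal end replicate 1 (31 of the 44 remained), 234 without fetal start replicate 3, 117 without fetal start replicate 1 and 81 without fetal end replicate 3. Without term replicate 2 or 3 there were 37 or 39 genes, with 32 of the 44 remaining each time. Fewer libraries make the conditions easier or harder to meet by construction. TMM-scaled CPM gave 38 genes (36 of the 44), and without the upper limit at fetal end there were 101.

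edgeR called 0 of the 44 genes in the 3 tested comparisons under each alternative run, and DESeq2 called 1 for IMV against term. Over all genes, IMV against NRS gave 119 calls with DESeq2, 2 with only the groups compared in the fit and 0 to 2 without 1 library. IMV against term gave 1094, 12 and 0 to 3, and NRS against term gave 115, 1 and 0 to 2. Fetal end against fetal start, which chose the genes, gave 122 calls with DESeq2 (14 of the 44), 0 with only its own groups in the fit (0 of the 44), 0 with the replicate block (0 of the 44) and 0 to 5 without 1 library (0 to 1 of the 44). With a term library left out, the lone other one is assumed to vary like the other groups. The cause of these differences was not tested.

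The median log2 fold change of the 44 genes ran from -0.161 to -0.0517 for IMV against NRS without 1 library, from -0.175 to 0.0035 for IMV against term (the highest without term replicate 3) and from -0.136 to -0.0153 for NRS against term. Of the single genes, ENSOARG00000000237 ranged from -0.0355 (without IMV replicate 1) to 0.67 for IMV against term. Same-numbered libraries had correlations of their deviations from the group means of -0.15 to 0.20. With so few libraries per group and no baseline from differently numbered libraries, these values do not settle whether the numbers pair the animals. The replicate block gave 0 calls in the 3 tested comparisons.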
